A study of Mus musculus with 4 samples.

Results

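The cathepsins of the lysosome and their secreted inhibitor cystatin C were followed in peritoneal macrophages with and without Dnmt1. The family was taken as 10 genes chosen by name, Ctsa, Ctsb, Ctsc, Ctsd, Ctsh, Ctsk, Ctsl, Ctss, Ctsz and Cst3, and all 10 were among the 13834 genes of the count table and passed the filter on low counts. RNA was sequenced from 4 samples, 2 labelled Dnmt1fl/fl and 2 labelled Dnmt1KO, all from mice homozygous for a floxed Dnmt1 gene. In Dnmt1KO a Cre driven by the myeloid LysM promoter is added, so the gene is cut only in cells that have used this promoter and need not be lost from every cell. The mice were 10 weeks old and received thioglycolate broth into the abdomen 3 days before lavage, so the macrophages were those elicited by that irritant, and they were then kept in culture medium. Nothing in the labels says whether a sample was 1 mouse or a pool. The p-values rest only on the spread between these samples, with the spread of each gene drawn towards that of all genes.

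Cathepsins are proteases made as inactive precursors, carried to endosomes and lysosomes and cleaved there into active enzymes. Most are cysteine proteases related to papain, Ctsd is an aspartic protease, and Ctsa is a serine carboxypeptidase. In macrophages they degrade engulfed proteins, trim the invariant chain and antigens for MHC class II and, when secreted, cut the extracellular matrix. Cystatin C, the product of Cst3, blocks cysteine cathepsins outside the cell and within the secretory pathway.

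The coding sequence around the residue that does the work shows how the 10 genes divide. The windows below were read from GENCODE M21 transcripts (GRCm38, the assembly also called mm10), run 5′ to 3′ on the gene's own strand, and have in capitals the codon of the catalytic cysteine in the 7 cysteine cathepsins, of the catalytic serine in Ctsa and of the first catalytic aspartate in Ctsd. In Cst3 the capitals are the loop that enters the active site of the protease.
Ctsb: tcctgcggctctTGTtgggcatttggg
Ctsc: tcttgtggaagcTGCtactcatttgcc
Ctsh: gcctgtggcagcTGCtggactttctct
Ctsk: cagtgtggttccTGTtgggctttcagc
Ctsl: cagtgcgggtctTGTtgggcgtttagc
Ctss: tcttgtggtgccTGCtgggctttcagt
Ctsz: tactgtggttccTGCtgggcccacggc
Ctsd: acagtcgtctttGATactggctcctct
Ctsa: ctgacaggagagAGCtatgctggcatc
Cst3: cgtaagCAGCTCGTGGCTGGAgtgaac
Of the 27 bases in the window, 22 were identical between Ctsk and Ctsl, the closest pair of cysteine cathepsins, and 12 between Ctsc and Ctsl and between Ctsh and Ctsl, the most distant pairs. Across whole transcripts the longest run that any 2 of the 10 genes had in common was 17 bases in Ctsk and Ctss. Each window lay in coding exons: exon 5 of Ctsk (chr3:95502585-95502611, plus strand), exon 5 of Ctsl (chr13:64367063-64367089, minus strand), exon 5 of Ctss (chr3:95545336-95545362, plus strand), exon 6 of Ctsh (chr9:90064510-90064536, plus strand), exon 6 of Ctsc (chr7:88308015-88308041, plus strand) and exon 2 of Ctsz (chr2:174438184-174438210, minus strand). The window of Ctsd was in exon 3 (chr7:142383467-142383493, minus strand) and that of Ctsa in exon 6 (chr2:164835231-164835257, plus strand). Those of Ctsb (chr14:63135705-63136415, plus strand, exons 4 and 5) and Cst3 (chr2:148872913-148875161, minus strand, exons 1 and 2) were spliced together across an intron. Ctsk and Ctss are neighbours on chromosome 3, in the same orientation with 17423 bases between them.

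Other genes overlap some members on the genome. How the counting treated strand and shared bases is not given in the sources used here, so the reads of such pairs cannot be told apart. Ctsa shares 495 exon bases with Pltp on the opposite strand, and Pltp ran from 1195 to 1887 CPM, as high as Ctsa itself. Ctsb shares 774 exon bases with Fdft1, which did not exceed 17.3 CPM, and Ctsz shares 10 with Nelfcd, which did not exceed 20.1 CPM. Neurl2, with 324 exon bases in Ctsa, did not exceed 16.3 CPM. Ctsd shares 808 exon bases with Gm49369 on the same strand, and Ctsl shares 1742 with the antisense gene Gm47123 and 395 with the pseudogene Gm49230, and none of these 3 is listed in the count table. The counts of Ctsc, Ctsh, Ctsk, Ctsz and Cst3 were whole numbers in all 4 samples, and those of Ctsa, Ctsb and Ctsd in none.

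Totals ran from 20228071 to 24198943 counts per sample. Values are given as CPM, counts scaled to a common library total with TMM factors for differences in composition between samples, and fold changes as log2 of Dnmt1KO over Dnmt1fl/fl from edgeR's quasi-likelihood fit, with Benjamini-Hochberg adjustment over all 12542 genes tested. Dnmt1 itself was at 86.6 and 67.0 CPM in Dnmt1fl/fl and at 37.0 and 42.7 CPM in Dnmt1KO replicates 1 and 2, a log2 fold change of -0.95 (SE 0.24, adjusted p = 1.00), so the genotypes did not overlap. Dnmt1KO replicate 1 stood apart from the rest, with 1818 genes at least 1 on the log2 scale from the median of the other 3 samples, against 445 to 592 genes for each of the others. All 6 macrophage markers were listed (Adgre1, Csf1r, Cd68, Mertk, Fcgr1 and Itgam), with a summed level of 5529 to 5741 CPM in Dnmt1fl/fl and 5544 to 6096 CPM in Dnmt1KO. This sum hides differences in both directions. Dnmt1KO replicate 1 was the lowest sample for Adgre1 (700 CPM), Csf1r (1011) and Mertk (121). It was the highest for Cd68 (1835) and Fcgr1 (334), and neither for Itgam. For neutrophils, 7 of 11 markers were listed, summing to 36.4 and 124 CPM in Dnmt1fl/fl and to 594 and 35.5 CPM in Dnmt1KO, and the granule genes Mpo, Elane, Camp and Ngp were not listed. The 5 B cell markers summed to 122 and 197 CPM in Dnmt1fl/fl and to 40.1 and 216 CPM in Dnmt1KO, and the 4 fibroblast markers to 45.0 and 65.0 and to 127 and 29.7 CPM. The high neutrophil and fibroblast sums and the low B cell sum were all in Dnmt1KO replicate 1. The 4 T cell markers (11.4 to 15.4 CPM over all samples), 5 mast cell markers (12.6 and 10.6 in Dnmt1fl/fl, 10.1 and 8.69 in Dnmt1KO), 2 of 4 eosinophil markers (7.47 to 11.8), 4 dendritic cell markers (17.3 to 38.4) and 4 mesothelial markers (3.01 to 7.73) summed to little beside the macrophage list. Of 5 markers of resident macrophages, 4 were listed, and their sum was lower in both Dnmt1KO samples (104 and 136 CPM) than in both Dnmt1fl/fl samples (146 and 224). Timd4 and Icam2 made up most of this sum, while Gata6 and Lyve1 overlapped between genotypes, and its part in the comparison of the genotypes was not tested. In such bulk samples, fewer cells of a type and less RNA per cell cannot be told apart.

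The 10 genes took 4.74% and 4.20% of all counts in Dnmt1fl/fl replicates 1 and 2, and 5.39% and 4.86% in Dnmt1KO replicates 1 and 2. Divided by transcript length, so that genes could be compared with each other, Ctss led the family in every sample at 7243 ± 341 CPM per kilobase (SD, n = 2) in Dnmt1fl/fl and 7902 ± 577 (SD, n = 2) in Dnmt1KO, and its rank was 4 to 6 among the 13604 genes with a length, while Ctsc ranked 325 to 530 and Ctsk 472 to 797. Ctss is the cathepsin that stays active at neutral pH and cleaves the invariant chain in macrophages. Ctsd followed at 4692 ± 685 and 5795 ± 504 CPM per kilobase, then Ctsb at 3310 ± 531 and 3952 ± 594 (SD, n = 2 each). Ctsl was the fourth, at 1547 ± 25.3 in Dnmt1fl/fl and 2549 ± 1414 in Dnmt1KO (SD, n = 2 each), where the large SD marks 2 samples far apart. Cst3, the inhibitor, was the fifth, at 1335 ± 60.8 and 1584 ± 314 CPM per kilobase, and Ctsz, Ctsa, Ctsh, Ctsc and Ctsk came below it. At the low end, Ctsk had 93.9 ± 12.0 and 149 ± 48.1 CPM per kilobase (SD, n = 2 each).

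The order of the first 8 genes was the same in all 4 samples. It holds for the transcript lengths used here. The union of exons is 6489 bases for Ctsl against a transcript of 1971, and 5808 against 2493 for Ctsc. The places of both genes and the share of Ctsl thus depend on the length taken. Only in Dnmt1KO replicate 1 did Ctsk (183 CPM per kilobase) pass Ctsc (158). Over the 4 samples, Ctss did not overlap with Ctsd, and Ctsz, Ctsa and Ctsh were each clear of the next gene in the order. The ranges of Ctsd and Ctsb, of Ctsb and Ctsl, of Ctsl and Cst3, of Cst3 and Ctsz and of Ctsc and Ctsk overlapped when pooled over samples, although only Ctsc and Ctsk changed places within a sample.

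**Figure D1:**
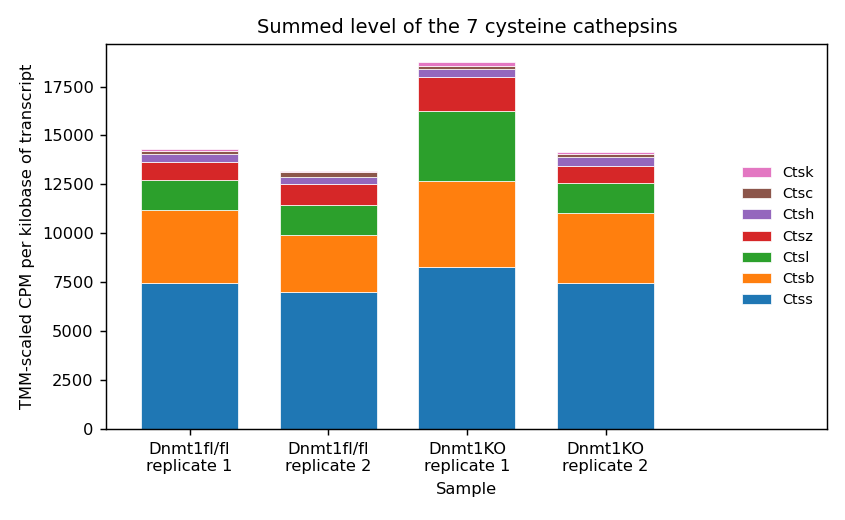
Summed level of the 7 cysteine cathepsins in each sample, in TMM-scaled CPM per kilobase of transcript, with 1 bar per sample divided by gene. Ctss and Ctsb make up most of each bar, and the bar of Dnmt1KO replicate 1 reaches 18735 against 13202 to 14318 in the other samples, with a wider Ctsl segment.

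The 7 cysteine cathepsins together were at 14318 and 13202 CPM per kilobase in Dnmt1fl/fl replicates 1 and 2, and at 18735 and 14173 in Dnmt1KO replicates 1 and 2. Dnmt1KO replicate 2 lay between the Dnmt1fl/fl samples. Ctss and Ctsb made up 78.0% and 75.3% of this sum in Dnmt1fl/fl, 67.7% in Dnmt1KO replicate 1 and 77.8% in Dnmt1KO replicate 2. The share of Ctsl was 10.9% and 11.6% in Dnmt1fl/fl, 18.9% in Dnmt1KO replicate 1 and 10.9% in Dnmt1KO replicate 2.

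Among the endopeptidases, which cut within a protein chain, Ctsl varied the most. Ctsl is a potent endopeptidase of the lysosome. It was at 3085 and 3014 CPM in Dnmt1fl/fl replicates 1 and 2, at 6994 in Dnmt1KO replicate 1 and at 3052 in Dnmt1KO replicate 2. The Dnmt1fl/fl samples and Dnmt1KO replicate 2 were thus nearly equal, and only Dnmt1KO replicate 1 was high, at 2.29 times the median of the other 3. The log2 fold change was 0.72 (SE 0.43, 95% interval -0.36 to 1.80, adjusted p = 1.00), and it was -0.00083 without Dnmt1KO replicate 1.

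Ctsk, the collagen-degrading cathepsin known best from osteoclasts, was at 155 and 129 CPM in Dnmt1fl/fl replicates 1 and 2 and at 276 and 174 CPM in Dnmt1KO replicates 1 and 2. Both Dnmt1KO samples were above both Dnmt1fl/fl samples, and Dnmt1KO replicate 1 was again the higher. The log2 fold change was 0.66 (SE 0.30, 95% interval -0.085 to 1.41, adjusted p = 1.00), with the lowest unadjusted p of the family (0.0726), and it was 0.29 without Dnmt1KO replicate 1.

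Its neighbour Ctss differed little. It was at 10142 and 9488 CPM in Dnmt1fl/fl and at 11260 and 10154 CPM in Dnmt1KO replicates 1 and 2, a log2 fold change of 0.13 (SE 0.27, 95% interval -0.55 to 0.80, adjusted p = 1.00). The genotypes were separate only by the small gap between Dnmt1fl/fl replicate 1 and Dnmt1KO replicate 2. Scaled by library totals alone, they overlapped, and without Dnmt1KO replicate 1 the log2 fold change was 0.047.

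Ctsb, which acts as both endopeptidase and exopeptidase, was the member with the most counts, at 17479.6 and 13915 CPM in Dnmt1fl/fl and at 20736 and 16750.3 CPM in Dnmt1KO replicates 1 and 2. Dnmt1KO replicate 2 fell within the range of Dnmt1fl/fl, and the log2 fold change was 0.26 (SE 0.31, adjusted p = 1.00), or 0.092 without Dnmt1KO replicate 1.

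The exopeptidases remove residues from the ends of a chain. Ctsz, a carboxypeptidase, was at 1332 and 1549 CPM in Dnmt1fl/fl, at 2534 in Dnmt1KO replicate 1 and at 1274 in Dnmt1KO replicate 2, so that the highest and the lowest sample were both Dnmt1KO. Its log2 fold change was 0.40 (SE 0.38, adjusted p = 1.00), and it was -0.18 without Dnmt1KO replicate 1. Ctsh, an aminopeptidase, was the steadiest gene, at 641 and 581 CPM in Dnmt1fl/fl and at 654 and 690.3 CPM in Dnmt1KO replicates 1 and 2. Both Dnmt1KO samples were above both Dnmt1fl/fl samples by a small margin, with a log2 fold change of 0.14 (SE 0.23, adjusted p = 1.00), and with library totals alone the genotypes overlapped and the value was 0.071. Without Dnmt1fl/fl replicates 1 and 2 in turn it was 0.21 and 0.073. Ctsc, the dipeptidyl peptidase that activates serine proteases of neutrophil and cytotoxic granules, was at 398 and 542 CPM in Dnmt1fl/fl and at 395 and 430.1 CPM in Dnmt1KO replicates 1 and 2. It was the one member with a negative log2 fold change, -0.19 (SE 0.26, adjusted p = 1.00), which was 0.055 without Dnmt1fl/fl replicate 2, the only high sample.

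The aspartic protease Ctsd, the main one of its class in lysosomes, was at 11010.4 and 8951 CPM in Dnmt1fl/fl and at 13085 and 11569 CPM in Dnmt1KO replicates 1 and 2. The genotypes did not overlap, and the log2 fold change was 0.30 (SE 0.29, 95% interval -0.41 to 1.02, adjusted p = 1.00). Without Dnmt1KO replicate 1 it was 0.21, and without Dnmt1fl/fl replicates 1 and 2 in turn it was 0.46 and 0.17. The serine carboxypeptidase Ctsa, which also protects β-galactosidase and neuraminidase within the lysosome, was at 1389 and 1188 CPM in Dnmt1fl/fl and at 1728 and 1299 CPM in Dnmt1KO replicates 1 and 2. Only Dnmt1KO replicate 1 was above both Dnmt1fl/fl samples, and the log2 fold change was 0.23 (SE 0.27, adjusted p = 1.00) with all samples and 0.0095 without that one.

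**Figure D2:**
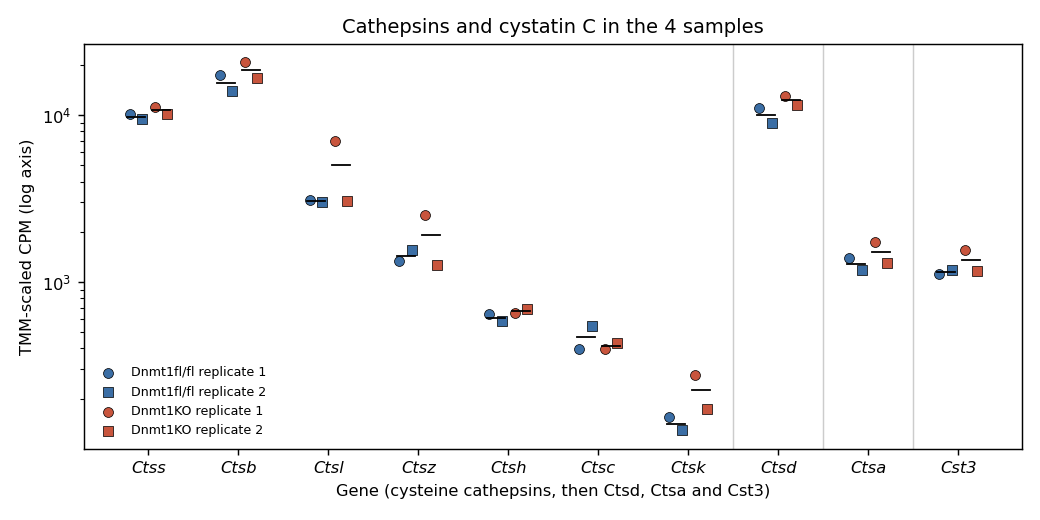
TMM-scaled CPM on a log axis for each of the 10 genes, with 1 point per sample (blue Dnmt1fl/fl, red Dnmt1KO, circles replicate 1, squares replicate 2) and a bar at each genotype's mean. The red circle, Dnmt1KO replicate 1, is the highest point for 8 of the 10 genes and is farthest from the others for Ctsl (6994 CPM) and Ctsz (2534 CPM).

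Cst3, the inhibitor, was at 1112 and 1185 CPM in Dnmt1fl/fl and at 1553 and 1171 CPM in Dnmt1KO replicates 1 and 2. Again only Dnmt1KO replicate 1 was high, with a log2 fold change of 0.25 (SE 0.26, adjusted p = 1.00) that was 0.026 without it. Per kilobase, the summed level of the cysteine cathepsins, most of it from Ctss and Ctsb, was 11.1 and 9.58 times that of Cst3 in Dnmt1fl/fl and 10.4 times in both Dnmt1KO replicates 1 and 2. On the log2 scale this ratio was 3.47 and 3.26 in Dnmt1fl/fl and 3.38 and 3.38 in Dnmt1KO, so that the Dnmt1KO samples lay between the Dnmt1fl/fl samples. These are ratios of transcripts, and neither protein was measured.

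In the comparison of the genotypes over the family, edgeR's quasi-likelihood test put the adjusted p of 0 of the 10 genes under 0.05, as for 0% of all genes tested. At an unadjusted p under 0.05 it called 0 of the 10 and 0.279% of all genes, 0.112% as higher and 0.167% as lower in Dnmt1KO. DESeq2 called 0 of the 10 before and after adjustment, and 39 and 1 of all 12542 genes. For limma-voom these counts were 0 of the 10, and 40 and 0 of all genes. The median log2 fold change was 0.25 over the family and 0.0046 over all genes tested, and 9 of the 10 values were above 0, where 50.9% of all genes were. With Dnmt1KO replicate 1 left out the family's median was 0.037, with Dnmt1KO replicate 2 left out 0.41, and with Dnmt1fl/fl replicates 1 and 2 left out in turn 0.32 and 0.15. Both Dnmt1KO samples were above both Dnmt1fl/fl samples in 4 genes, Ctsd, Ctsh, Ctsk and Ctss, against 8.14% of all genes tested, and both were below in 0, against 8.56%. With library totals alone 3 genes were above, Ctsd, Ctsk and Ctsl, against 5.94% of all genes, and 0 below, against 10.6%. The members' values come from the same libraries, so they are not independent of each other, and a count over them is a description.

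**Figure D3:**
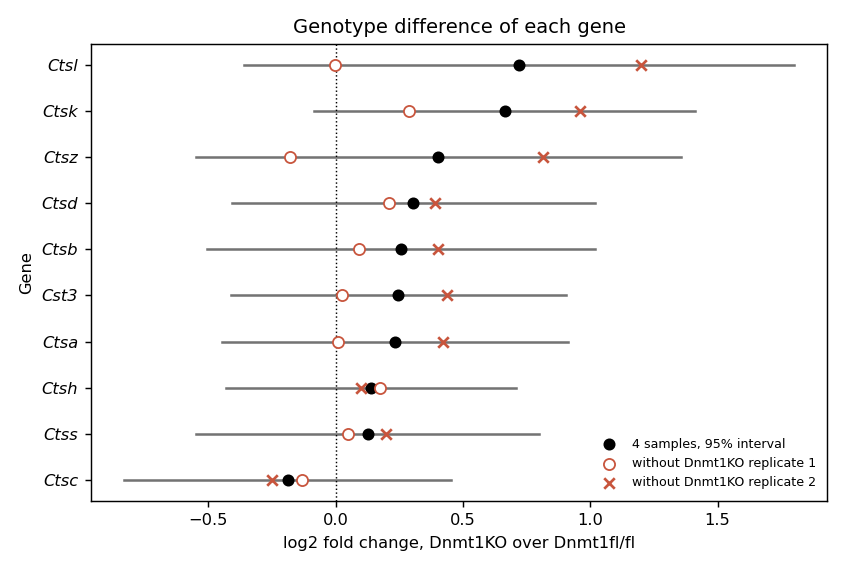
Log2 fold change of Dnmt1KO over Dnmt1fl/fl for each gene from edgeR's quasi-likelihood fit (black points with 95% intervals) and the same value without Dnmt1KO replicate 1 (open circles) or without Dnmt1KO replicate 2 (crosses). All 10 intervals span 0, and for Ctsl the value goes from -0.00083 to 1.20 according to which Dnmt1KO sample is left out.

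The member with the fewest counts, Ctsk, had at least 3180 in a sample, for which counting error alone is 1.77%, while its SD between replicates was 25.0%. For Ctsl the counting error was at most 0.397% and the SD between replicates 41.5%. On the log2 scale the median replicate SD was 0.23 over the family and 0.29 over all genes tested. Ctsh (0.081) and Ctss (0.089) were among the least variable genes, with 7.74% and 9.07% of all genes below them, whereas Ctsz (0.51) and Ctsl (0.60) were among the more variable, with 77.1% and 83.0% of all genes below them.

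The Dnmt1KO samples were far apart in Ctsl, Ctsz and Ctsk. They differed by 1.20 in Ctsl, 0.99 in Ctsz and 0.67 in Ctsk on the log2 scale, while the Dnmt1fl/fl replicates differed by 0.033, 0.22 and 0.26. Over all genes tested the median difference was 0.48 between the Dnmt1KO replicates and 0.21 between the Dnmt1fl/fl replicates. Dnmt1KO replicate 1 was the highest of the 4 samples in 8 of the 10 genes, where it was the highest in 38.8% of all genes tested. Against the median of the other 3 samples it was 1.20 higher in Ctsl, 0.93 in Ctsz and 0.84 in Ctsk on the log2 scale, and 97.5%, 94.8% and 93.4% of all genes had a lower value. Ctsh (0.030) and Ctsc (-0.12) were close to 0. That sample was also the one with the high neutrophil and fibroblast markers and the low B cell markers, whose part in the values of the cathepsins was not tested.

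**Figure D4:**
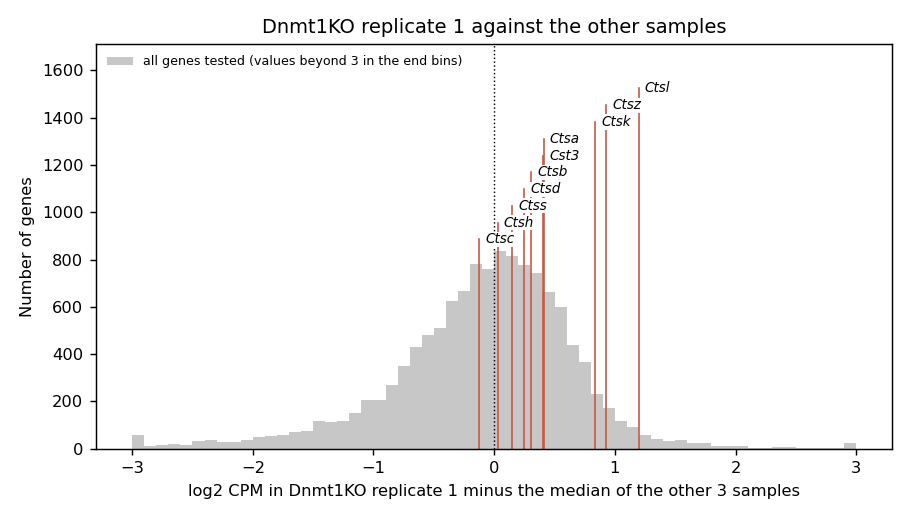
Distribution over all 12542 genes tested of the log2 CPM in Dnmt1KO replicate 1 minus the median of the other 3 samples (grey bars, number of genes), with a red line at the value of each family gene. Ctsl, Ctsz and Ctsk lie in the right flank between 0.84 and 1.20, and the other 7 genes lie between -0.12 and 0.41.

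Genes that act with the cathepsins were counted from 7 lists, of which 42 genes were tested. Of these, 0 had an adjusted p under 0.05 in either direction with edgeR, DESeq2 or limma-voom, and 1, Serpinb1a, had an unadjusted p under 0.05 with each of them, where edgeR gave 0.279% of all genes such a p. With the replicate number as a block it was 0 of 42, and 34 of all 12542 genes. Of 14 other cathepsins, 5 were listed and 4 tested, with a median log2 fold change of 0.029, or 0.18 without Dnmt1KO replicate 1. Ctso was at 90.6 and 80.3 CPM in Dnmt1fl/fl and at 75.6 and 91.8 CPM in Dnmt1KO replicates 1 and 2, and Ctse, an aspartic protease, at 82.1 and 67.9 and at 68.5 and 90.1 CPM. The largest positive value on the list was 0.47 for Ctsf and the most negative one -0.030 for Ctso, and the genotypes overlapped in both genes. Ctsf was at -0.43 without Dnmt1KO replicate 2, and Ctso at 0.10 without Dnmt1KO replicate 1 and 0.060 without Dnmt1fl/fl replicate 1. Ctsg, a serine protease of neutrophil granules, had between 1 and 3 counts per sample and was not tested.

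The other inhibitors of cathepsins had 9 of 15 genes tested, with a median log2 fold change of 0.017 that was -0.36 without Dnmt1KO replicate 1, and Dnmt1KO replicate 1 was the highest sample in 6. Cstb, the cytosolic inhibitor of cysteine cathepsins, was at 350.3 and 355 CPM in Dnmt1fl/fl, at 783 in Dnmt1KO replicate 1 and at 276 in Dnmt1KO replicate 2. Dnmt1KO replicate 1 was thus the only high sample, and it was the highest sample in 38.8% of all genes tested. In Cstb, Dnmt1KO replicate 2 was below both Dnmt1fl/fl samples. Stfa2l1, of the stefin A cluster, had the largest value of the list, 2.60 (SE 1.77, adjusted p = 1.00), and stood at 0.292 and 3.99 CPM in Dnmt1fl/fl and at 26.1 and 0.424 CPM in Dnmt1KO. Its value was -2.35 without Dnmt1KO replicate 1, 1.49 with the replicate number as a block and 1.32 with limma-voom. The summed neutrophil markers were likewise highest in Dnmt1KO replicate 1 (594 CPM) and next in Dnmt1fl/fl replicate 2 (124 CPM). Their part in the values of Stfa2l1 was not tested. The largest negative value was that of Serpinb1a, an inhibitor of neutrophil serine proteases, with 57.9 and 40.3 CPM in Dnmt1fl/fl and 24.0 and 33.1 CPM in Dnmt1KO, a log2 fold change of -0.78 (SE 0.29, 95% interval -1.49 to -0.071, adjusted p = 1.00). Both Dnmt1KO samples were below both Dnmt1fl/fl samples. Of the genes tested on this list, 2 were below in this way and 1 was above, where 8.56% and 8.14% of all genes were.

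All 7 tested genes of 8 other lysosomal peptidases had log2 fold changes above 0, with a median of 0.12, where 50.9% of all genes were above 0. Without Dnmt1fl/fl replicate 2, Tpp1 (-0.039), Scpep1 (-0.11), Cpq (-0.20) and Prcp (-0.054) were below 0, without Dnmt1KO replicate 2 Cpq (-0.34) and Prcp (-0.15) were, and without Dnmt1KO replicate 1 Dpp7 (-0.044) and Lgmn were. The largest value was that of Lgmn, the legumain that processes cathepsin precursors, at 2013 and 1794 CPM in Dnmt1fl/fl and at 3135 and 1875 CPM in Dnmt1KO, a value of 0.40 that was -0.024 without Dnmt1KO replicate 1. Of the 10 genes for delivery and activation, 10 were tested and 7 had positive values, with a median of 0.084, or -0.024 without Dnmt1KO replicate 1. Grn, the progranulin that is cut into granulins in lysosomes, had the largest, 0.37 (0.048 without that sample). Vps35, of the retromer that recycles sorting receptors, had the most negative, -0.21. In Vps35 both Dnmt1KO samples (229 and 250.3 CPM) were below both Dnmt1fl/fl samples (277 and 278 CPM), as in 8.56% of all genes.

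The 3 partners of Ctsa in the lysosome, Glb1, Neu1 and Galns, had positive values with a median of 0.13, of which Galns had the largest at 0.44, or 0.096 without Dnmt1KO replicate 1. Glb1 (0.033) was at -0.23 without Dnmt1KO replicate 2, and Neu1 (0.13) at -0.23 without Dnmt1KO replicate 1. The 5 genes of antigen processing had a median of 0.067, which was 0.36 without that sample. Ifi30, the lysosomal thiol reductase, had the largest value, 0.50, and stood at 323 and 424 CPM in Dnmt1fl/fl and at 714 and 346 CPM in Dnmt1KO. Without Dnmt1KO replicate 1 its value was -0.11. Cd74, the invariant chain that Ctss cleaves, had the most negative value, -0.21, at 2745 and 1954 CPM in Dnmt1fl/fl and 1474 and 2580 CPM in Dnmt1KO. Its value was 0.13 without Dnmt1KO replicate 1 and 0.053 without Dnmt1fl/fl replicate 1. Dnmt1KO replicate 1 was the lowest sample for Cd74, as it was for the summed B cell markers (40.1 CPM) and dendritic cell markers (17.3 CPM), whose part in it was not tested. The 4 transcription factors that act on lysosomal genes had a median of 0.12, or 0.029 without Dnmt1KO replicate 1. Of these, Tfeb had a value of 0.11 (0.00030 without Dnmt1KO replicate 1 and -0.049 without Dnmt1fl/fl replicate 2) and Tfe3 of 0.13 (0.059 and 0.060), Tfec had the largest, 0.48 (SE 0.25, adjusted p = 1.00), and Mitf the most negative, -0.17 (0.031 without Dnmt1fl/fl replicate 1). Tfec was at 10.5 and 10.8 CPM in Dnmt1fl/fl and at 14.5 and 15.2 CPM in Dnmt1KO, so both Dnmt1KO samples were above both Dnmt1fl/fl samples, as in 8.14% of all genes.

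Since Dnmt1 copies DNA methylation at CpG dinucleotides, the CpG content of the promoters was counted. RefSeq promoters (GRCm38.p6, 250 bases before to 50 after the annotated start) were on hand for 8 of the 10 genes, with 2 starts for Ctsa. In 7 of the 8 genes the promoter held fewer CpG than the median of 19 over the 13641 promoters of genes in the count table. Ctsk had 2 and Ctss 5, the fewest of the family, Ctsl had 10, Ctsc and Ctsz 12 each, Cst3 13, and Ctsa 15 and 8 at its 2 starts. Only Ctsd, with 33, was above the median, and its ratio of observed to expected CpG was 0.97 against a median of 0.73. Methylation was not measured in these samples.

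Lysosomal genes are known to carry a motif of 10 bases bound by Tfeb and its relatives, made of the core CACGTG with GT before it and AC after it. Core and motif are palindromes, so that both strands were searched at once, and the longer holds the shorter. The core was in the promoters of 3 of the 8 genes, Ctsa, Ctsd and Ctsl, and in 9.72% of the 13641 promoters of listed genes. In Ctsa it was only in the downstream promoter (chr2:164833523-164833822), and the upstream one (chr2:164832622-164832921) held no site. The sites are printed with 8 bases on either side where the promoter allows, 5′ to 3′ on the gene's strand and with the core in capitals.
Ctsa, start -12: caaactgtCACGTGatgcagat
Ctsa, start 5: cagatgctCACGTGaccagagc
Ctsd, start -98: ccgcgtctCACGTGacccgttg
Ctsd, start -245: tccccCACGTGacctgtat
Ctsl, start -236: ttagaagcCACGTGctgatcta
Starts are counted in bases from the annotated first base of the transcript, which is 0, and for Ctsa from that of the downstream promoter. The sites of Ctsa lie at chr2:164833753-164833774 and chr2:164833770-164833791 (plus strand), those of Ctsd at chr7:142387912-142387933 and chr7:142388059-142388077 (minus strand) and that of Ctsl at chr13:64370743-64370764 (minus strand). The sites of Ctsa and the site of Ctsd at -98 matched 9 of the 10 bases of the long motif, which 3.06% of promoters of listed genes held with at most 1 mismatch, the site of Ctsd at -245 matched 8 and that of Ctsl 7. Ctsa and Ctsd had log2 fold changes of 0.23 and 0.30, near the family's median, and Ctsl had 0.72. Without Dnmt1KO replicate 1 these were 0.0095, 0.21 and -0.00083. Any relation between the sites and these values was not tested.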

How the data were processed

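Per the labels and the study's methods, paired-end reads were aligned with HISAT2 2.0.5 to the mouse genome (mm10) and counted per gene with featureCounts 1.5.0-p3. The annotation is not given in the sources used here. The authors deposited estimated counts, not normalized, of which 72.6% to 76.4% per sample were whole numbers. They also deposited a shorter table of 2749 rows that repeat the whole table, which was not used. Every listed gene is above 0 in all 4 samples. All values were rounded, filtered with filterByExpr and scaled by TMM (factors 0.910 to 1.04) with edgeR 4.0.16 under R 4.3.3. Its quasi-likelihood F-test, two-sided and without a block, compared the genotypes at a common dispersion of 0.0837 (coefficient of variation 28.9%). Standard errors and 95% intervals came from the F statistic. No exact permutation test was run, since 2 against 2 samples give p = 0.333 at the lowest. The fits were also run on simulated counts, drawn with the same dispersion for every gene and with no outlying sample. Those runs do not test the fits for samples as far apart as these.

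Of the symbols, 98.4% had a length, taken from 1 GENCODE M21 transcript per gene, by support level, then APPRIS principal tag, then length. Other fits used DESeq2 1.42.0, limma-voom from limma 3.58.1, a block by replicate number, other factors and filters, and leaving out each sample. The genes named are the 10 members, Dnmt1 and, for each list of related genes, those with the largest positive and negative change. Ctse, Cstb, Ctsg, Tpp1, Scpep1, Cpq, Prcp, Dpp7, Glb1, Neu1, Tfeb, Tfe3 and the overlapping genes were named after their values were seen. Members and lists were chosen with earlier results of these data known. A floor of 3 counts was 0.124 to 0.148 CPM and covers counting error only. Tables were made with Python 3.11.15.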

Additional observations from a re-analysis of the deposited data

How the results depend on the processing

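For the 10 genes and Dnmt1, direction and side of the threshold were the same under the replicate block, DESeq2, limma-voom, RLE and upper-quartile factors, library totals alone and both other filters. Leaving out a sample changed them for Ctsc, Ctsk, Ctsl, Ctsz and Dnmt1 and not for the other 6 genes, with the lone sample assumed to vary like the pair. Over these 4 fits the log2 fold change of Ctsl ran from -0.00083 to 1.20, of Ctsz from -0.18 to 0.82, of Ctsc from -0.39 to 0.055, of Ctsk from 0.29 to 0.96, of Dnmt1 from -1.12 to -0.75, of Ctsa from 0.0095 to 0.42, of Ctsb from 0.092 to 0.43, of Ctsd from 0.17 to 0.46, of Ctsh from 0.073 to 0.21, of Ctss from 0.047 to 0.20 and of Cst3 from 0.026 to 0.44. Ctsl, Ctsk and Dnmt1 changed side of the threshold only without Dnmt1KO replicate 2, with log2 fold changes of 1.20, 0.96 and -1.05. Serpinb1a, Ifi30 and Stfa2l1 changed side there too, and Stfa2l1 also without Dnmt1fl/fl replicate 2. The fit without Dnmt1KO replicate 2 rests on the Dnmt1KO sample that stood apart. Many other genes changed side in it, so these calls are not particular to the genes named. Among other genes the range was -0.67 to 0.13 for Cd74, -0.18 to 0.10 for Ctso, -0.43 to 1.02 for Ctsf, -0.11 to 0.94 for Ifi30, -0.024 to 0.72 for Lgmn, -0.34 to 0.031 for Mitf, 0.048 to 0.62 for Grn, 0.096 to 0.71 for Galns, -1.03 to -0.50 for Serpinb1a and -2.35 to 5.48 for Stfa2l1. Genes with an adjusted p under 0.05 numbered 0, and 0 to 1061 over the fits with 1 sample left out, where those at an unadjusted p under 0.05 ran from 43 to 3521. The 1061 and 3521 are without Dnmt1KO replicate 2, and without Dnmt1KO replicate 1 they were 0 and 352. DESeq2 called 1 gene, no filter gave 60 genes at an unadjusted p under 0.05, and an added crossed pairing gave 3 and 297.

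The numbers 1 and 2 do not pair the samples by any label, and same-numbered samples deviated in opposite directions (correlation -0.348 across genes). The replicate block left 0 genes called after adjustment and 34 before it, against 35 before adjustment with no block. With 1 sample left out, which leaves fewer samples to overlap, 4 to 9 members had the remaining Dnmt1KO samples above the remaining Dnmt1fl/fl samples and 0 to 1 below, against 19.8% to 41% of all genes above and 19.8% to 41.9% below. The mean log2 ratio of cysteine cathepsins to Cst3 was 3.36 in Dnmt1fl/fl and 3.38 in Dnmt1KO. It was 4.76 and 4.79 without division by length and 3.68 and 3.65 with the union of exons as length, an alternative added after seeing the data. Library totals alone moved the median of all genes from 0.0046 to -0.062. Counting error was at most 1.77% for the 10 members, and low genes such as Stfa2l1 are less precise.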
